A study of Mus musculus with 33 samples.

Results

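C-type lectins and Siglecs are surface receptors that read glycans and other ligands, and mouse immune cells carry large families of both. The genes described here were chosen by name: every gene whose symbol begins with Clec, Cd209, Siglec or Klr, with 1 left out by the rule. This gave 69 of the 32285 genes counted, namely 30 Clec, 7 Cd209, 6 Siglec and 26 Klr genes. The rule uses names alone, but it was set with earlier results of these data known. All 69 were found in the mouse annotation of build GRCm38, where 68 are protein coding and 1 is a transcribed unprocessed pseudogene. The genes are clustered in the genome, with 48 on chromosome 6, 10 on chromosome 8 and 5 on chromosome 7. Each had at least 1 UMI (unique molecular identifier, one counted RNA molecule) in the kept cells. In the cells of the intracardiac samples 41 had at least 1000 UMIs and 12 had under 100.

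The data were single-cell RNA-seq counts from mouse tissues labelled with SAMENT: tumour cells bring an enzyme into the animal, and cells close to them receive a biotin tag from it. Tumour cells were injected into the heart in 32 samples, with 4 biotin positive and 4 biotin negative samples each for bone, brain, liver and lung. A further pooled bone sample came from an injection named only IIA and held 6 positive and 6 negative hashtagged samples, whose hashtag numbers were matched between the sample sheet and the matrix by number, an inference. The labels used here give no strain, genotype, age or tumour line for any group, and all groups shared the overnight substrate labelling and the sort on biotin. Between 94 and 3505 cells were kept per intracardiac sample, with median depths from 2606 to 11314 UMIs per cell, and 22362 cells were kept in the pooled sample at a median of 3294.5 UMIs. No barcode was shared by intracardiac samples of the same number, and 325 of 55041 occurred in more than 1 sample of different numbers. Nothing in the labels says that replicates came from separate animals, so p-values measure only the spread between these samples.

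Receptors of these families fall into a few working roles. Some, such as Clec4n (Dectin-2) and Clec5a, signal through adaptors with an activation motif, while others, such as Clec4a2 and Clec12a, carry an inhibitory motif of their own. The Cd209 genes, Clec4f, Clec4g and Clec10a encode endocytic lectins of macrophages, dendritic cells and sinusoidal endothelium. Siglecs bind sialic acid and most dampen signalling, whereas Siglech pairs with an activating adaptor. Most Klr genes sit in the natural killer gene complex: the Klra genes encode the Ly49 receptors for class I molecules, Klrd1 encodes CD94, Klrk1 encodes NKG2D and Klrb1c encodes NK1.1, and several Clec2 genes encode ligands of Klrb1 receptors. The Klra, Klrb1, Clec4a, Cd209 and Clec2 groups hold near-identical copies, so values of single members of them are uncertain.

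Promoter sequences of 5 members on which the results below turn are shown from RefSeq (GRCm38.p6, from 250 bases before to 50 after the gene start, 57 of 69 members matched). Capitals mark GAGGAA or its reverse complement TTCCTC, the core letters of the PU box bound by myeloid ETS factors, searched on both strands. These letters occurred in 28.3% of 27025 promoters of the same length and in 30 of 57 members (52.6%), a description of letters and not of binding. Cd209f and Cd209g, both on chromosome 8, held no match and shared an unbroken run of 180 bases, against at most 9 bases for any other pair of the 5. The sequences run 5′ to 3′ on the gene's strand.
Clec4d, chr6:123261857-123262156, + strand: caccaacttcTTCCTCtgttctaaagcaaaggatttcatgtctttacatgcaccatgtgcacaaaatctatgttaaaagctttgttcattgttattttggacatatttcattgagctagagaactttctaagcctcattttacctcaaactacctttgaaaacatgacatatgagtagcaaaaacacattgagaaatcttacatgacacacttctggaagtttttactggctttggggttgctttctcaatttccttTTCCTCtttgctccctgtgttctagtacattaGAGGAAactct
Siglecf, chr7:43351091-43351390, + strand: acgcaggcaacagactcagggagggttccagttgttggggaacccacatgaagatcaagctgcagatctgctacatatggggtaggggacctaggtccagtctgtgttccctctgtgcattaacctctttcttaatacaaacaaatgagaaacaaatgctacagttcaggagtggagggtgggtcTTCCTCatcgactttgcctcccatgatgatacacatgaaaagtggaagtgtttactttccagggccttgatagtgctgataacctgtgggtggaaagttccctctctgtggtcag
Siglech, chr7:55767934-55768233, + strand: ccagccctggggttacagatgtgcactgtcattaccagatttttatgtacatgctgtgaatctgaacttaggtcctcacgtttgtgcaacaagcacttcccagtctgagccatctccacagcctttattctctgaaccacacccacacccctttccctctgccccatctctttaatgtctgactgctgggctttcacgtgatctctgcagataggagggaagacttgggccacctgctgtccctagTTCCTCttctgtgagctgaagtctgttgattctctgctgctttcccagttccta
Cd209f, chr8:4105715-4106014, - strand: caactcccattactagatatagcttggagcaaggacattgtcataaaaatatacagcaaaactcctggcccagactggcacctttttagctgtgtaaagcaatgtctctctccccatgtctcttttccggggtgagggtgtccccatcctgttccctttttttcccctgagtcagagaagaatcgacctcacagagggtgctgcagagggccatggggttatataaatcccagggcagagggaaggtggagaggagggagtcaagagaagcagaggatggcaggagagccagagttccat
Cd209g, chr8:4134486-4134785, + strand: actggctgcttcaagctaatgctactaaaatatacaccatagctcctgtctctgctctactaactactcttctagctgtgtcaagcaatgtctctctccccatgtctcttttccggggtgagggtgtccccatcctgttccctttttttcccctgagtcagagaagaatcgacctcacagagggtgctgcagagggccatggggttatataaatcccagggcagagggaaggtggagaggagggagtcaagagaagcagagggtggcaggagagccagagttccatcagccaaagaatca

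The members divided the cell classes between them. Levels are given as CPM, a gene's counts per 1000000 counts of a sample's cells of a class, mean ± SD over samples with at least 10 such cells. Class names come from marker genes that exclude the members and mean resemblance only, so that macrophage stands for macrophage-like. Siglech, a receptor of plasmacytoid dendritic cells, reached 2355 ± 203 in plasmacytoid dendritic cells (n = 11) and 909 ± 470 in microglia (n = 5), and these classes held 73.1% and 18.8% of its UMIs. The next class, macrophages, averaged 32 CPM.

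NK cells led for the Klr genes named here. Not all Klr genes followed: Klra2 had 19518 UMIs in 12593 intracardiac cells and Klra17 had 4432 in 3525. Both passed the count filter in neutrophils and in monocytes. Klrd1, the partner chain of the NKG2 receptors, stood at 1153 ± 271 CPM, Klrb1c at 716 ± 185 and Klrk1 at 650 ± 167 (n = 20). Klra4, an Ly49 receptor, had 93.1% of its UMIs in NK cells. Klrd1 was not limited to them: it stood at 395 ± 61.5 CPM in plasmacytoid dendritic cells, 207 ± 93.8 in conventional dendritic cells and 192 ± 104 in T cells, and NK cells held 41.8% of its UMIs. Klrd1 was seen in 78.5% of bone plasmacytoid dendritic cells and 54.4% of lung conventional dendritic cells, against 0.492% of bone and 0.246% of lung neutrophils, at median depths of 5578, 8906, 7030 and 4163 UMIs. With cells thinned to 2000 UMIs over all tissues, and shallower cells left out, the shares with Klrd1 were 48.9%, 26.5% and 0.152% in plasmacytoid dendritic cells (634 of 640 kept), conventional dendritic cells (1267 of 1315) and neutrophils (14508 of 15184).

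Macrophage classes differed in some lectins and shared others. Clec4f, the galactose receptor known from Kupffer cells, averaged 3131 ± 794 CPM in macrophage cluster 32 (n = 5), whose leading genes include Cd5l, Vsig4 and Timd4, and that cluster held 87.1% of its UMIs. In liver 84.9% of macrophages had a Clec4f UMI against 2.09% of B cells and 6.06% of neutrophils, at median depths of 5345, 2101 and 4537 UMIs. Alveolar macrophages expressed Clec4n at 260 ± 91 CPM, Clec4a3 at 216 and Clec4a2 at 164 (n = 6). Clec4a3 and Clec4a2 were also among the leading members of macrophages, at 226 and 231 CPM, and of monocytes. Siglecf, known from eosinophils and alveolar macrophages, stood at 144 ± 15.6 CPM there and had 78.6% of its UMIs in that class. Cd209f, a homologue of DC-SIGN, was rare but restricted in the same way, with 88.8% of its UMIs in macrophages. It was seen in 10.8% of brain macrophages and in 0.0352% of brain neutrophils, at median depths of 3729 and 6642 UMIs.

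Leading members of the other classes are given for the intracardiac samples unless stated. Neutrophils, averaged over tissues, were led by Clec4d, an activating receptor also called MCL, at 554 ± 327 CPM, then by the inhibitory Siglece at 182 and Clec4a2 at 180 (n = 32). In negative intracardiac bone alone Clec4a2 averaged 284 ± 40.7 CPM and Clec4d 223 ± 34.8 (n = 4), so the order of the means differed there. In IIA bone neutrophils were led by Clec12a at 286 ± 40.2 CPM, then Clec4a2 at 209 and Siglece at 196 (n = 12). Granulocyte precursors were led by Clec12a, an inhibitory receptor, at 611 ± 74.3 CPM in the intracardiac samples (n = 11) and 719 ± 140 in IIA bone. Monocytes expressed 3 genes of the Clec4a group, with Clec4a3 at 388, Clec4a2 at 309 and Clec4a1 at 213 CPM (n = 30). Conventional dendritic cells were led by Cd209a at 234 ± 170 CPM (n = 25), and 75% of its UMIs lay there. Endothelial cells were led by Clec4g, the lectin of liver sinusoids, at 1034 ± 938 CPM and by Clec14a at 535 ± 348 (n = 12). Clec4g followed the tissue: it lay between 1305 and 2095 CPM in 7 liver samples and at most 17.4 in the 5 brain and lung samples. B cells were led by Siglecg, an inhibitor of B cell receptor signalling, at 174 ± 67.8 CPM (n = 29). T cells, averaged over tissues, were led by Klrd1 at 192 ± 104 CPM and then Clec2d at 138 ± 53 (n = 29). Klrd1 in T cells differed by tissue, as given below. In IIA bone T cells Clec2d averaged 280 ± 38.3 CPM and Klrd1 279 ± 106 (n = 7). In IIA bone, osteoclasts held 82.5% of the UMIs of Siglec15, a Siglec known from osteoclasts, at 31.9 ± 1.94 CPM (n = 2). That share rests on 40 UMIs in 23 cells of IIA bone, and the osteoclasts were 55 positive cells and 1 negative cell. The heat map of levels by class shows these patterns for the well counted members.

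**Figure D1:**
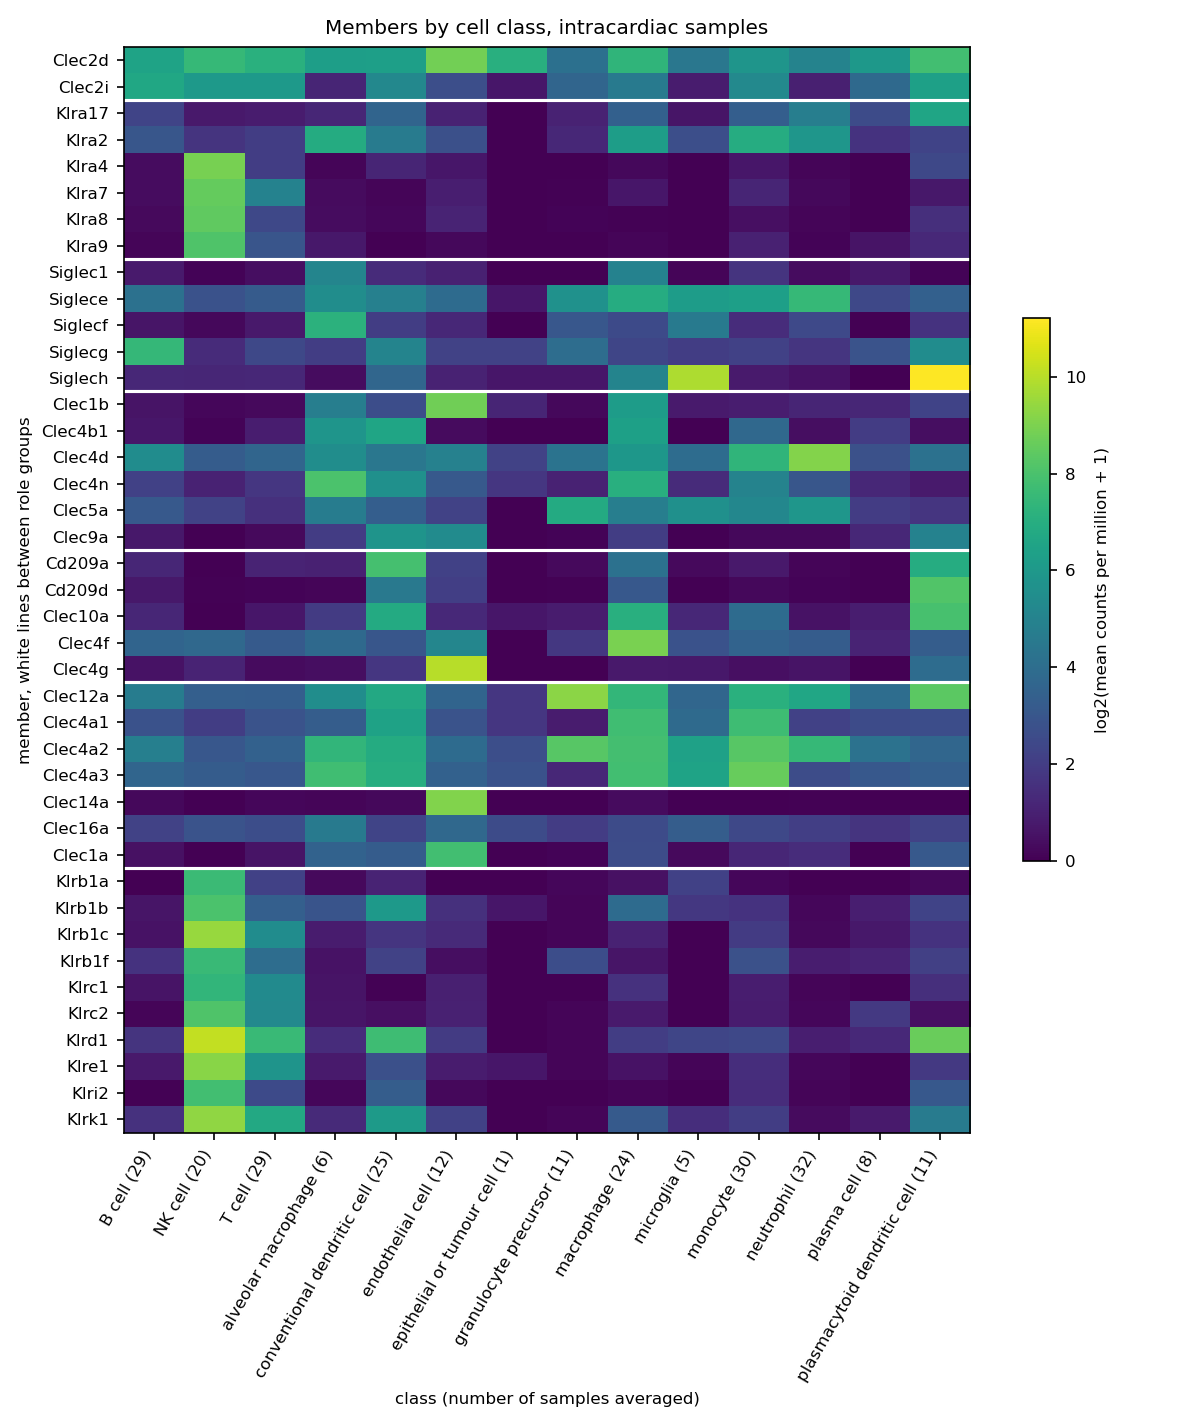
Heat map of 41 members (rows, those with at least 1000 UMIs, grouped by role with white lines between groups) in 14 cell classes of the intracardiac samples (columns, number of samples averaged in brackets). Colour gives log2(mean CPM + 1). Siglech stands out in plasmacytoid dendritic cells and microglia, Klrd1, Klrb1c and Klrk1 in NK cells and Clec4g and Clec14a in endothelial cells.

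Genes with a like pattern were ranked by Pearson correlation of log2(CPM + 1) over 46 class by tissue means, out of 11006 genes. The points share libraries and depth, and the values are descriptions. Siglech was most like Gm5086 (0.95), Tmem221 (0.91) and Mycl (0.89), and Clec4f was most like C6 (0.86), Vsig4 (0.86) and Cd207 (0.83). Cd209a was most like Prss30 (0.89), its relative Cd209d (0.89) and Mycl (0.89). Siglecf was most like Gal (0.88), Olr1 (0.84) and Nrg4 (0.82), and Klrd1 was most like Cd7 (0.96), Klrk1 (0.93) and Srgap3 (0.89).

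The first comparison asked which members differed between biotin positive and negative cells of a tissue, over all kept cells of a sample. UMI counts were tested with edgeR's quasi-likelihood test over all genes, and a gene was called at a Benjamini-Hochberg adjusted p under 0.05. In such sums, more cells of a type and more RNA per cell cannot be told apart. Lung gave the most calls among the intracardiac tissues: 24 of 44 members tested, 6 higher and 18 lower in positive samples. Of 12331 genes tested 18.3% were called, 11.5% higher and 6.8% lower.

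Siglecf and 5 other members were higher in biotin positive lung, a count close to the share of all genes called higher. Siglecf stood at 78, 125, 58.2 and 36.5 CPM in the positive samples and at 3.54, 8.67, 1.15 and 3.82 in the negative ones, so the groups did not overlap. Its log2 difference was 3.74 (SE 0.61, edgeR adjusted p = 0.00531). The other 5 higher members fell outside the 10 largest changes and are named after their values were seen: Siglec1, the macrophage sialoadhesin, Clec1b, a receptor for podoplanin, Clec4n, Clec4b1 and Clec16a, whose product acts in autophagy. Clec4n stood at 237, 287, 134 and 120 CPM against 35.9, 47.2, 25.5 and 36.8, with a log2 difference of 2.09 (SE 0.33, edgeR adjusted p = 0.00454). By role, 3 of 6 activating myeloid lectins tested were called higher and 0 lower, whereas 0 of 4 inhibitory and 0 of 4 endocytic lectins were higher and 1 of each was lower. Of 5 Siglecs 2 were higher and 1, Siglech, was lower. The lower lectins, Clec4a1 (-1.18), placed in the inhibitory group, and Cd209d (-2.45), an endocytic lectin, both as log2 differences, are also named after their values were seen. Whether Clec4a1 carries an inhibitory motif was not checked, so the counts by role describe the grouping only. None of the 6 higher members overlapped between groups. Called or not, 7 of 44 members were higher in positive samples without overlap, a share near the 17.7% of all genes tested that were. Alveolar macrophages made up 44.6% of positive cells on average (14.8 to 81.1%) and 0.284% of negative cells. All 12 listed alveolar macrophage markers were detected in both groups, none at 0, their summed level ran from 6998 to 27970 CPM in positive and from 1971 to 3790 in negative samples, and 11 of 12 were called higher. Of the macrophage markers 6 of 16 were called higher (2124 to 6142 CPM in positive and 1164 to 3078 in negative samples), and of the megakaryocyte or platelet markers, a lineage that carries Clec1b, 1 of 5 tested (214 to 2094 and 54.8 to 232 CPM). Of the eosinophil markers 1 of 3 tested was called higher, and their summed level did not overlap (13.2 to 121.5 and 3.63 to 12.6 CPM), all 6 of them detected in both groups. The part of these cells in the result was not tested.

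Many Klr receptors were lower in biotin positive lung. Their Ly49 group also holds Klra2 and Klra17, which were counted in neutrophils and monocytes too. Of the members outside the Ly49 group, 9 of 11 Klr receptors tested were called lower with a median log2 difference of -3.12, and of the Ly49 receptors 5 of 8 were called lower with a median of -3.55, against -0.04 over all genes. Klra4 stood at 1.31, 0.379, 0 and 5.45 CPM in positive samples and at 92.9, 5.01, 14.9 and 18.2 in negative ones, a log2 difference of -4.71 (SE 1.21, edgeR adjusted p = 0.0283). The groups overlapped, and negative replicate 1 was far above the rest. The others among the largest changes were Klra8 (-4.19), Klra7 (-3.90), Klrb1a (-3.74), Klrg1 (-3.64), Klrb1c (-3.59), Klra9 (-3.56), Klra3 (-3.53) and Klre1 (-3.49), all as log2 differences, and of these 8 only Klra3 did not overlap between groups. Called or not, 6 of 44 members were lower without overlap, beside 3.93% of all genes tested. Without negative replicate 1 only 10 members were called, 5 higher and 5 lower, and leaving out positive replicate 2, positive replicate 3 or negative replicate 4 left 12, 11 and 13. NK cells made up 5.24% of negative cells on average (0.794 to 15.1%, highest in negative replicate 1) and 0.39% of positive cells. All 12 NK markers were detected, with a summed level of 4045 to 8172 CPM in negative and 2163 to 3772 in positive samples, and 7 were called lower. T cells, which also carry Klrd1 and Klrk1, averaged 19.4% of negative and 2.89% of positive cells. Their 14 markers were all detected, with a summed level of 347 to 1699 CPM in negative and 60.9 to 321 in positive samples, and 13 were called lower. The part of either class in the result was not tested.

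**Figure D2:**
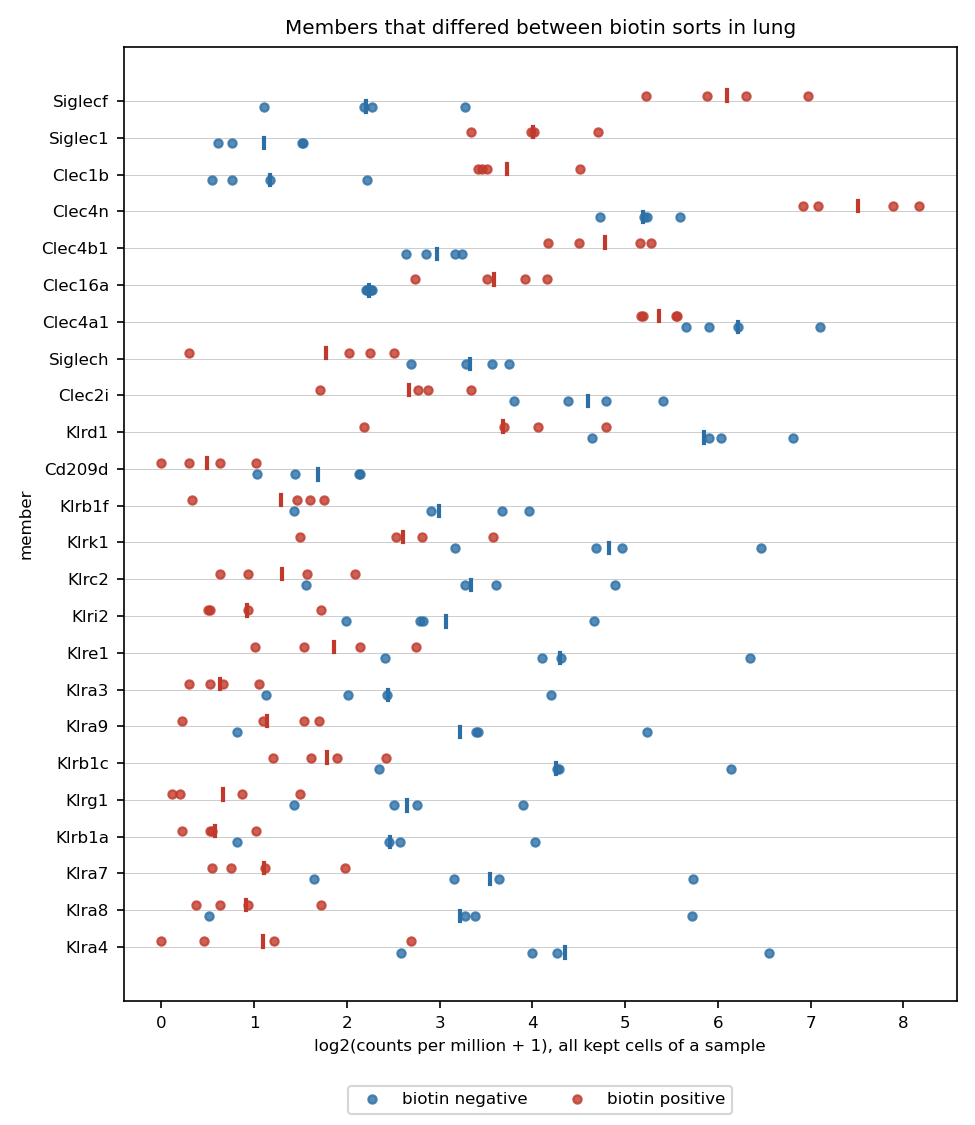
Members called between biotin sorts in lung (rows, ordered by log2 difference), with log2(CPM + 1) over all kept cells on the horizontal axis. Each point is 1 sample, 4 per sort, and vertical bars are means. The 6 members at the top are higher in positive samples without overlap, from Siglecf to Clec16a, and the Klr genes at the bottom are lower with overlap for most.

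In IIA bone most calls were lower in positive samples. Of 38 members tested 23 were called, 3 higher and 20 lower in positive samples, beside 50.2% of 12625 genes, 27% higher and 23.2% lower, so the members' count of higher genes lies below the background. The higher members were Clec4n, Clec11a, a secreted growth factor of bone marrow also called osteolectin, and Siglecf, of which the last 2 are named after their values were seen. Clec4n stood at 59.9, 318, 140, 1.86, 4.69 and 8.75 CPM in positive samples and at 3.19, 11.8, 3.61, 2.05, 2.42 and 1.77 in negative ones, a log2 difference of 4.25 (SE 1.12, edgeR adjusted p = 0.00752). Injections 1, 2 and 3 were high and the other positive samples overlapped the negative ones. The macrophage share averaged 20.1% in positive samples (5.56 to 52%) and 2.42% in negative ones. All 16 macrophage markers were detected, their summed level was 437.8 to 6343 CPM in positive and 168.8 to 399 in negative samples, and 10 of 12 tested were called higher. Other lists moved too: 3 of 3 eosinophil markers tested were called higher (summed level 10.8 to 417 CPM in positive and 6.21 to 72.8 in negative samples), as were 9 of 11 stromal markers (34.7 to 4026 and 43.6 to 278 CPM), 7 of 10 granulocyte precursor markers (5760 to 28570 and 5109 to 7083 CPM) and 5 of 6 megakaryocyte or platelet markers (404 to 4244 and 33.6 to 60.6 CPM). All markers of these lists were detected in both groups. The part of these cells in the result was not tested.

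Siglech had the largest difference of the lower members in IIA bone. It stood at 0, 3.83, 0.154, 6.98, 0.896 and 0.336 CPM in positive and at 38.3, 20, 38.1, 34.2, 24.1 and 20.8 in negative samples, with no overlap and a log2 difference of -4.56 (SE 0.68, edgeR adjusted p = 0.00019). The share of plasmacytoid dendritic cells averaged 0.392% in positive and 2.97% in negative samples, and 9 of their 11 markers were called lower. The other lower members among the 10 largest changes were Klra1 (-4.01), Klrc2 (-2.71), Klri2 (-2.56), Klrb1c (-2.46), Klrc1 (-2.39), Klrk1 (-2.24), Klre1 (-2.15) and Klrd1 (-2.06), as log2 differences. In 5 of these 8, positive injection 2 was the highest positive sample by far. No NK cluster was separable in IIA bone, and its NK genes lay in the T cell class, whose share averaged 5.53% in negative and 1.41% in positive samples. Of 14 T cell markers 11 were called lower. Of 11 NK markers tested 4 were called lower and 1 higher, and their summed level overlapped, at 1421 to 2501 CPM in positive and 1946 to 3045 in negative samples. The part of these cells in the result was not tested.

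**Figure D3:**
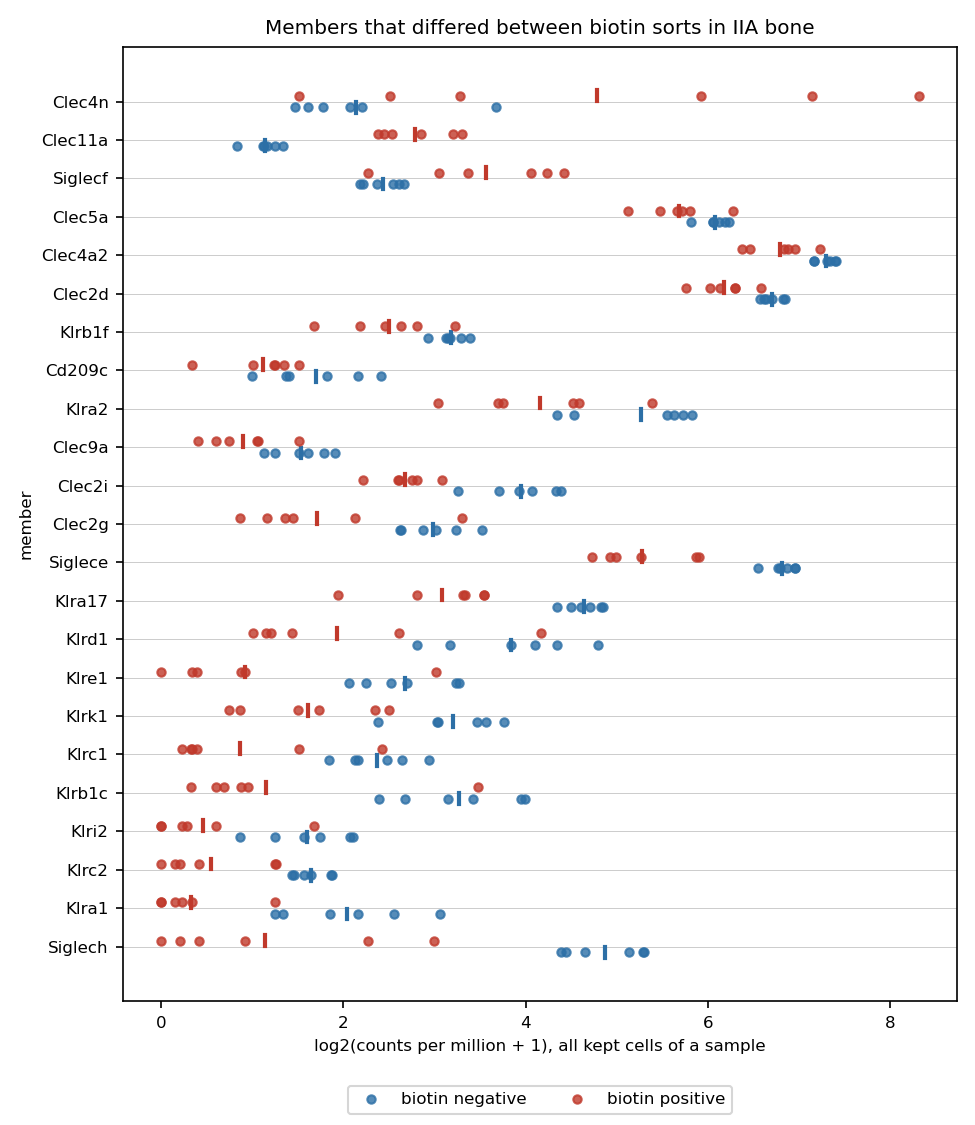
Members called between biotin sorts in IIA bone (rows, ordered by log2 difference), with log2(CPM + 1) over all kept cells on the horizontal axis. Each point is 1 of 6 samples per sort and vertical bars are means. Clec4n is spread widely in positive samples, and Siglech is separated from the negative samples.

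Brain differed in a pair of Cd209 genes. Of 38 members tested 2 were called, both higher in positive samples, where 3.06% of 11064 genes were called and 2.88% were higher. Cd209f stood at 27.1, 34.2, 7.53 and 25.3 CPM in positive and at 0.304, 0.527, 2.08 and 0.384 in negative samples, with no overlap and a log2 difference of 4.84 (SE 0.67, edgeR adjusted p = 0.0155). Cd209g stood at 3.47, 15.6, 4.52 and 7.31 against 0.0506, 0, 0.57 and 0.105 CPM, with a log2 difference of 5.48 (SE 0.80, edgeR adjusted p = 0.0155). Neither was called without negative replicate 1, negative replicate 4 or positive replicate 4. With the replicate number as a block, 5 members were called by edgeR beside 6.89% of all genes, namely these 2, Siglec1 (2.95) and Clec10a (2.11) higher and Siglecg (-1.38) lower, as log2 differences. The macrophage share averaged 36.2% in positive samples (12.7 to 81%) and 4.38% in negative ones. All 16 macrophage markers were detected, with a summed level of 11200 to 47150 CPM in positive and 635.4 to 4121 in negative samples, and 5 of 15 tested were called higher. Microglia made up 18.8% and 0.453%, and 10 of 11 of their markers were called higher. Their part in the result was not tested.

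Siglech differed between tissues in its biotin difference. It stood at 69.1, 67.2, 219 and 404 CPM in positive and at 43.2, 9.09, 11.7 and 12.9 in negative brain samples, with no overlap, but was not called in that comparison (log2 difference 3.06, SE 0.71, edgeR adjusted p = 0.0539). In bone it stood at 6.62, 2.32, 4.77 and 0.219 CPM in positive and at 151, 26.6, 19 and 6.91 in negative samples, a log2 difference of -3.83 that was not called, and the value was -2.16 in liver, not called. In lung it was -1.87 and called, a call lost on leaving out any of 5 of the 8 samples: negative replicate 1, 3 or 4 or positive replicate 1 or 2. Mean shares of plasmacytoid dendritic cells among positive cells were 0.342% (bone), 0.404% (liver), 0.0952% (lung) and 0.0453% (brain), against 2.84, 1.81, 0.223 and 0.956% among negative cells. Microglia averaged 18.8% of positive brain cells and 0.453% of negative ones. All 11 microglia markers were detected in both brain groups and 10 of 11 were called higher (summed level 3369 to 19560 CPM in positive and 985 to 1913 in negative samples). The 11 plasmacytoid dendritic cell markers were all detected in both groups of each tissue, and 3 of 11 tested were called lower for lung, whereas 0 were called of 11, 11 and 8 tested for bone, liver and brain. Their summed level overlapped between the groups of each tissue, at 136 to 354 CPM in positive and 207 to 1754 in negative samples for bone, 537 to 772 and 508 to 1224 for liver, 281 to 401 and 228 to 735 for lung, and 483 to 792 and 253 to 783 for brain. The part of these cells in the result was not tested. The difference itself was tested over the 32 intracardiac samples, comparing the biotin difference of 1 tissue with the mean of the other 3. In brain this difference for Siglech was 5.60 on the log2 scale (SE 1.05, edgeR adjusted p = 0.0139) and for Clec10a it was 3.24 (SE 0.74, edgeR adjusted p = 0.0499), where 0.301% of genes were called. In lung Siglecf (3.27, SE 0.59, edgeR adjusted p = 0.00222) and Clec16a (1.39, SE 0.29, edgeR adjusted p = 0.00741) differed from the other tissues, where 2.54% of genes were called. In bone and in liver 0 of 53 members tested were called, beside 0% of all genes. Siglech lost its call without brain negative replicate 2, 3 or 4 or brain positive replicate 4, and Clec10a on leaving out any of 26 of the 32 samples, that is, all but bone positive replicates 1 and 2, brain positive replicates 1 and 3, lung negative replicate 2 and lung positive replicate 4. Siglecf and Clec16a kept theirs in all 32. With the replicate number as a block 7 members were called: these 4, Clec1b (2.27) and Clec2i (-1.58) in lung and Klra3 (3.84) in bone, as log2 differences, beside 6.14% of genes for lung, 0.0931% for bone, 1.02% for brain and 0.00716% for liver.

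**Figure D4:**
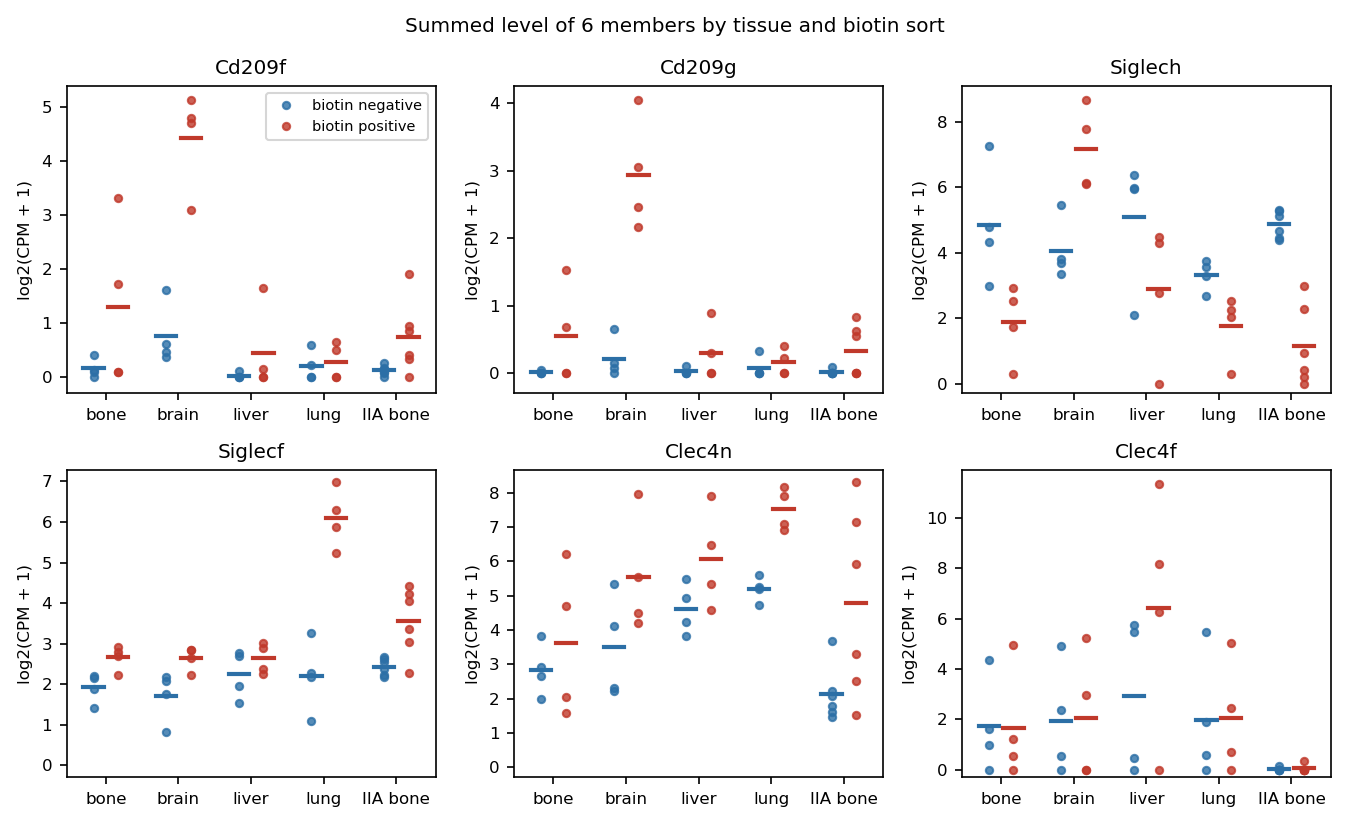
Log2(CPM + 1) over all kept cells for 6 members (panels) in 4 tissues of the intracardiac samples and in IIA bone (horizontal axis), with biotin negative samples in blue and positive in red, 1 point per sample and a bar for the mean. Cd209f and Cd209g are higher in positive brain, the mean of Siglech is higher in positive than negative samples in brain alone, and Siglecf stands out in positive lung.

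Bone and liver gave no call. In bone 0 of 44 members and 0% of 12533 genes were called by edgeR, 5 members were under 0.05 before adjustment, beside 7.84% of genes, and 0 members passed with DESeq2. With the replicate number as a block 0 were called beside 0.0957% of genes, and 24 were under 0.05 before adjustment, beside 18%. In liver 0 of 45 members and 0% of 11854 genes were called, with 23 members at an unadjusted p under 0.05, beside 13.3% of genes. DESeq2 called 15 members, 3 higher and 12 lower, beside 3.64% of genes, 2.69% higher and 0.945% lower. With the block 0 members were called beside 0% of genes, and 28 were under 0.05 before adjustment, beside 16.9%. Liver values were uneven between samples. Clec4f stood at 76.1, 2577, 285 and 0 CPM in positive and 0.403, 52.3, 43.1 and 0 in negative liver samples. Macrophages made up from 0 to 80.5% of positive liver cells.

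Within cell classes few members were called between sorts in the main test. The replicate number as a block and the lack of a low-count filter each gave more, as listed below. In neutrophils edgeR called 0 members, beside 0% of all genes in each intracardiac tissue and 0.785% in IIA bone. The same held for monocytes, beside 0% in the 4 intracardiac tissues and 0.0562% in IIA bone. T cells of bone, brain and lung and B cells of bone, liver, lung and IIA bone also gave 0 members called beside 0% of all genes. In all of these comparisons 0 members passed with DESeq2. Before adjustment, neutrophils had 0 of 14, 8, 8 and 10 members tested under 0.05 in bone, brain, liver and lung, beside 0.913, 0.438, 0.971 and 0.806% of genes, and 2 of 11 in IIA bone, beside 9.74%. Monocytes had 1 of 14, 0 of 15, 1 of 16 and 0 of 13 in the same order of tissues, beside 5.48, 5.9, 2.64 and 6.3%, and 5 of 15 in IIA bone, beside 9.75%. T cells had 3 of 8, 0 of 5 and 1 of 7 (bone, brain, lung), beside 2.42, 2.83 and 3.75%. B cells had 2 of 6, 0 of 3, 1 of 4 and 0 of 8 (bone, liver, lung, IIA bone), beside 5.49, 1.78, 4.34 and 7.04%. Few members were tested in each, so 1 member moves such a share by much. NK cells could not be fitted in any tissue, since at most 2 positive samples of a tissue had at least 10 NK cells. In macrophages 0 of 16 members were called in brain beside 0.358% of genes and 0 of 12 in liver beside 0%, where 9 and 3 members were under 0.05 before adjustment, beside 16.5% and 2.95% of genes. DESeq2 called 3 in brain macrophages, beside 3.32% of genes, and 0 in those of liver.

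Clec4n was the exception in macrophages of IIA bone, where it was the 1 member called of 12 tested beside 20.1% of all genes. It stood at 533, 567, 378, 27.1, 180 and 273 CPM in positive and at 59.5, 112, 48.8, 33.2, 22.7 and 15.4 in negative samples, so 1 positive sample overlapped the negative ones. Its log2 difference was 2.72 (SE 0.54, edgeR adjusted p = 0.00307). Cluster 0 held 86.4% of positive and 89.8% of negative macrophages. Clec4n had a UMI in 40.6% of macrophages of IIA bone and in 0.172% of its B cells, at median depths of 4498 and 1614 UMIs.

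Replicate numbers were taken from correlations as pairing the samples in bone, brain and liver, which the labels do not state. With the number as a block, further members were called within classes by edgeR. In macrophages these were 6 of 16 in brain, beside 7.74% of genes, and 3 of 12 in liver, beside 1.36%. In brain macrophages Clec10a, a galactose-type lectin, stood at 642, 508, 112 and 655 CPM in positive and at 126, 123, 88.8 and 158 in negative samples (log2 difference 1.62, edgeR adjusted p = 0.00762). Cd209f (1.76) and Clec4n (1.22) were also higher there, and Clec4b1 (-2.38), Klra2 (-2.34) and Clec12a (-1.05) were lower. Liver macrophages were lower for Clec4b1 (-2.52), Clec4a2 (-1.52) and Clec4a3 (-1.06), and cluster 32 held 88.8% of positive but 52.3% of negative macrophages. Single calls were Clec4d in brain neutrophils (0.47, beside 1.17% of genes), Klra17 in liver monocytes (2.03, beside 0.485%) and Klra7 in bone T cells (-1.91, beside 0.159%). In IIA bone, not taken as paired, the block also called Clec4d in neutrophils (log2 difference 0.68, edgeR adjusted p = 0.000753), beside 186 of 7645 genes. Clusters 17 and 3 held 21.8% and 9.82% of positive liver monocytes and 8% and 32.3% of negative ones. The part of these clusters and of cluster 32 in the results was not tested. Without the block edgeR called none of these members in these comparisons, and DESeq2 called Clec10a, Clec4b1 and Klra2 in brain macrophages.

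Across tissues, biotin negative samples were compared within a class, with CPM on edgeR's TMM scale. Neutrophils differed for 3 of 14 members tested, beside 11.6% of all genes. Clec4d stood at 216, 209, 260 and 225 CPM in bone and at 766, 1067, 989 and 740 in lung, with brain at 118, 648, 627 and 273 and liver at 205, 902, 714 and 386 (edgeR adjusted p = 0.0364). Bone and lung did not overlap, while brain and liver samples were spread widely, each with a sample below the lowest of bone. Clec4a2 ran the other way, at 270, 276, 280 and 331 in bone against 95.4, 68.1, 75.2 and 91.8 in lung (edgeR adjusted p = 0.0211), and so did Clec12a, at 146, 170, 157 and 181 in bone against 58.9, 30, 20.2 and 34.6 in lung (edgeR adjusted p = 0.0434). Different clusters held the class: clusters 12, 16 and 14 held 34.2, 31.2 and 28.3% of negative bone neutrophils, and cluster 15 held 92.6% of those in lung. Cluster 15 averaged 838 ± 188 CPM of Clec4d and cluster 16 averaged 26.3 ± 20.7. The part of the clusters in the result was not tested. The 3 calls fell to 0 without bone replicate 3, lung replicate 1 or lung replicate 2, and to 1 without any other bone or lung replicate.

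**Figure D5:**
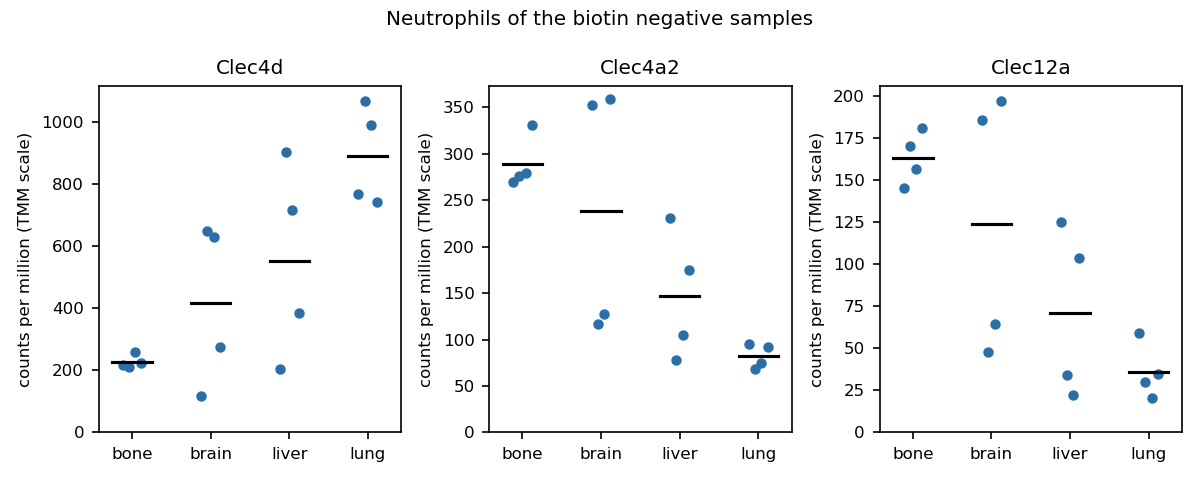
Clec4d, Clec4a2 and Clec12a in neutrophils of the biotin negative samples, in CPM on edgeR's TMM scale, by tissue on the horizontal axis. Each point is 1 sample, 4 per tissue, and bars are means. The mean of Clec4d is lowest in bone and highest in lung, and the means of Clec4a2 and Clec12a are lowest in lung.

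In T cells 2 of 11 members were called across tissues beside 0.097% of all genes. Klrd1 stood at 267, 409, 446 and 258 CPM in bone and between 90.2 and 194 in the other tissues (edgeR adjusted p = 0.0110), without overlap. Klra7 stood at 96.5, 59.5, 130 and 216 in bone and at most 60.5 elsewhere (edgeR adjusted p = 0.0110), where 1 brain sample lay above the lowest bone sample. Same-numbered samples were taken as paired in T cells, and with the number as a block edgeR called 10 members, beside 3.8% of all genes. T cell cluster 24, which averaged 356 ± 148 CPM of Klrd1, held 44.2% of negative T cells of bone and 46.1% of those of brain, against 22.2% for liver and 23.5% for lung. The part of this cluster in the result was not tested. In B cells Clec4a2 was the 1 member called of 8, beside 0.211% of genes, at 28.3, 47.1, 39.3 and 38.9 CPM in bone and 7.21, 2.45, 10.1 and 5.79 in lung (edgeR adjusted p = 0.0143). The call was lost without bone replicate 2, 3 or 4 or lung replicate 4, and with members among the clustering genes. B cell samples were also taken as paired, and with the number as a block Clec4a2 kept its call (edgeR adjusted p = 0.00356). Clec4a2 averaged 289 CPM in neutrophils and 11.7 in T cells of the same bone samples, and Clec4d, a neutrophil gene, had a UMI in 7% of bone and 4.56% of lung B cells. The part of free RNA in this call was not tested. In monocytes 0 of 21 members were called by edgeR beside 0.0313% of genes, 3 were under 0.05 before adjustment, beside 9.41% of genes, and 0 passed with DESeq2.

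A list of 56 adaptors, phosphatases, sialic acid enzymes and ligands was examined beside the members. Not every listed gene is a known partner of a member, and Flt3l is listed without a member as its receptor. Over all cells 0 were called in bone, brain or liver, of 52, 49 and 51 tested, with edgeR. In lung 3 of 54 were higher and 1 lower: Pdpn, the podoplanin ligand of Clec1b, rose by 2.58 on the log2 scale, Cdh1, the ligand of Klrg1, by 2.60 and Ulbp1, a ligand of Klrk1, by 1.34, and Flt3l fell by 1.54. Epithelial or tumour cell markers were called higher there for 5 of 6 tested (125 to 488 CPM summed in positive and 13.8 to 21.7 in negative samples) and stromal markers for 4 of 6 (66.5 to 342 and 2.24 to 20.4 CPM), all of both lists detected, whose part in the result was not tested. All genes were called higher or lower there in 11.5% and 6.8%. In IIA bone 9 of 51 were higher and 23 lower, where 27% and 23.2% of all genes were. Signalling adaptors and kinases were lower there for 10 of 15, among them Hcst (-1.47), the partner of Klrk1, Tyrobp (-1.15), the partner of Siglech and Clec5a, and Syk (-0.90), while Src was higher (2.51). Neutrophils averaged 18% of positive and 49.8% of negative cells there and 13 of their 14 markers were called lower, whose part in the result was not tested. Enzymes of sialic acid synthesis and transfer were split, with 6 of 17 higher and 6 lower.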

How the data were processed

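Cells from 32 intracardiac samples and 1 pooled IIA bone sample were used. The deposited values are raw UMI counts for each cell, made with cellranger 6.1.2 (intracardiac) and 7.1.0 (IIA), per the file headers, and the submitters' processing notes name mm10. Cells with at least 500 UMIs, 200 genes and at most 15% mitochondrial UMIs were kept, and pooled cells were assigned by hashtag where the leading count was at least 10 and 3 times the next. Clusters were built with scanpy 1.11.5 from 2000 variable genes without the members, and named from marker lists with at least 3 markers among the leading genes, so that shares may differ from the authors' own annotation. Likely doublets were left in and removed only as an alternative.

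Counts were summed per sample, or per sample and class with at least 10 cells in at least 3 samples a group. They were tested with edgeR 4.0.16 (quasi-likelihood, TMM, low counts filtered by edgeR's expression filter) over all genes, with DESeq2 1.42.0 as an alternative. Members among the 10 largest called changes of a comparison, or among the 3 highest of a class, are named, and other called members are marked as named after their values were seen. The members and lists were chosen with earlier results of these data known. The fitting was checked on simulated data. Intervals over cells cover counting error only. The replicate numbers come from the sample titles. In all genes tested, deviations of same-numbered positive and negative samples correlated at over 0.1 for every pair in bone, brain and liver, and these were taken as paired, whereas number 3 of lung and injection 3 of IIA bone lay under 0.1. Unlike numbers could pass too: brain positive 1 and negative 4 correlated at 0.427, above 0.213 for number 4 of both sorts. The rule therefore does not tell pairs from other samples, and the labels state no pairing. Across tissues, every pair of same-numbered negative samples correlated at over 0.1 in T cells and B cells (24 of 24 pairs each), which were taken as paired, but 22 of 24 pairs did in neutrophils and 23 of 24 in monocytes, which were not. Unlike numbers were not correlated across tissues, so that check has no yardstick.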

Additional observations from a re-analysis of the deposited data

Results flagged for a closer look

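In 46 groups of samples examined, 8 held 1 sample far from the others of its group, where chance gives about 1 in 20. In positive samples of IIA bone, 5 members had the same high sample, injection 2. Klrd1 stood at 17.0 CPM there against 5.12 in the next sample, Klrb1c at 10.1 against 0.930, Klre1 at 7.12 against 0.896, Klri2 at 2.19 against 0.521 and Klra1 at 1.37 against 0.261. In negative samples of IIA bone, Clec4n stood at 11.8 CPM against 3.61 in the next. In negative brain samples Cd209f stood at 2.08 CPM against 0.527, and in negative lung samples Klra4 stood at 92.9 CPM against 18.2.

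The biotin difference of 4 members differed between tissues in edgeR's interaction test over 32 samples. On the log2 scale it was larger in brain than in the mean of the other tissues by 5.60 for Siglech and by 3.24 for Clec10a, and larger in lung by 3.27 for Siglecf and by 1.39 for Clec16a. Leaving out 1 sample at a time gave 2 to 5 such members. The call of Clec10a was lost for 26 of the 32 samples and that of Siglech for 4, while Siglecf and Clec16a kept theirs, and 7 members were called with the replicate number as a block.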

How the results depend on the processing

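None of the log2 differences of single members that were compared changed direction. Of them, 82 of 356 lost their call when 1 sample was left out, as did 2 of 23 without likely doublets and 1 of 27 with no filter. Of 81 class levels, 5 moved beyond their spread at 5% mitochondrial UMIs and 8 with members among the clustering genes. Over all cells, the members called in lung (24) and IIA bone (23) stayed within 1.5 times under DESeq2, RLE scaling, no low-count filter, the replicate block and removal of doublets. Brain gave 7 with DESeq2 and 4 with no filter, and liver 15 with DESeq2. With no filter, neutrophils gave 1, monocytes 5, T cells 4, B cells 3 and macrophages 12 members between sorts, and across tissues neutrophils gave 5, T cells 13 and B cells 2. DESeq2 gave 4 in macrophages and 8 in T cells across tissues. Without likely doublets macrophages gave 2. With members among the clustering genes, monocytes gave 2, macrophages 4 and B cells across tissues 0. The cause was not tested.

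With the replicate number as a block, brain gave 5 members, neutrophils 2, monocytes 1, T cells 1 and macrophages 10, and across tissues neutrophils 8 and T cells 10, and the difference between tissues 7. In neutrophils across tissues the numbers were not taken as pairing the samples. The other counts stayed within 1.5 times. In lung and IIA bone the numbers were not taken as pairing the samples, and the block gave 26 and 25 members called. Not every sample there correlated best with its own number, nor did brain negative replicate 4. Siglech in lung was not called with the block (edgeR adjusted p = 0.0682) or without likely doublets (0.123).

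Leaving out 1 sample at a time gave 0 to 3 members in brain, 0 to 5 in liver (5 without positive replicate 2), 10 to 25 in lung, 20 to 30 in IIA bone (30 without positive injection 2), 0 to 1 in B cells and 1 to 5 in macrophages between sorts. Across tissues it gave 0 to 6 in neutrophils, 1 to 5 in T cells and 0 to 1 in B cells, and 2 to 5 for the difference between tissues. Bone stayed at 0, as did neutrophils, monocytes and T cells between sorts and monocytes across tissues. The alternatives of the difference between tissues were chosen after seeing the data. Low counts limited what could be read from the 12 members with under 100 UMIs. Few cells limited NK cells of positive samples and liver positive replicate 4, with 94 cells.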
